A study of Mus musculus with 13 samples.

Results

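The transforming growth factor beta (TGF-beta) and bone morphogenetic protein (BMP) signal genes described here are the ligand genes Tgfb1, Tgfb2, Tgfb3, Inhba and Bmp4, the receptor genes Tgfbr1, Tgfbr2 and Tgfbr3, and Ltbp1, whose product stores latent TGF-beta in the matrix. They were chosen by gene symbol, and all 9 were measured among 15437 genes tested, each by 1 probe set. RNA came from sciatic nerve of BKS mice aged 24 weeks, on 6 arrays of db/db mice (samples 110, 111, 112, 409, 410 and 411) and 7 arrays of db/+ mice (samples 101, 103, 104, 105, 106, 404 and 407). The db allele is a mutation of the leptin receptor gene. db/db mice carry it on both copies and become obese and diabetic. db/+ mice carry it on a single copy and serve as the nondiabetic comparison, so that the allele is present in both groups. The labels number each sample but do not say that each is a separate animal, and p-values measure the spread between these samples. The comparison asks which of these transcripts differ in the nerve of a mouse model of the neuropathy of type 2 diabetes.

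TGF-beta ligands are secreted bound to their own propeptide and to a latent TGF-beta binding protein, and act only after release. The freed ligand joins the type II receptor to the type I receptor, which phosphorylates the transcription factors Smad2 and Smad3, while BMPs signal through other receptors to Smad1, Smad5 and Smad9. In peripheral nerve, TGF-beta acts on Schwann cells and fibroblasts during development and after injury, and is known for raising matrix production.

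The values were log2 expression levels, on which a difference of 1 is a doubling. Array medians over all genes lay between 8.63 and 8.71. The Schwann cell markers Mbp and Pmp22 stood high, at percentiles 99.1 and 99.9 of mean level over all genes. Mbp, a structural myelin protein gene, stood at 13.08 in db/db and 13.28 in db/+ (group means). Pmp22, another myelin protein gene, stood at 13.62 and 13.84. Over all arrays 4 of the 7 measured Schwann cell markers fell (limma adjusted p under 0.05, 11.7% of all genes lower). These were Gjb1, Mag, S100b and Sox10, at −1.29, −1.13, −1.07 and −0.99, while Mbp, Pmp22 and Egr2 did not pass. The mean of this list ranged from 9.75 to 10.96 in db/db and from 10.48 to 11.13 in db/+ 105, 404 and 407. On db/+ 101, 103, 104 and 106 it ranged from 11.07 to 11.62. Of the 13 neuronal markers 11 fell in the same test. The files used here hold no detection calls, so no marker can be said to be absent. The neuronal markers averaged between 6.63 and 7.29 on the db/db arrays. On db/+ 105, 404 and 407 they averaged between 7.49 and 8.55, but on db/+ 101, 103, 104 and 106 between 11.55 and 12.33. These 4 db/+ arrays stood apart from the other 9, so the results of the 9 genes and of the pathway lists are given with and without them. In bulk tissue, fewer cells of a type and less RNA per cell cannot be told apart.

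Of the 9 genes, Tgfb1 and Tgfbr1 rose and Tgfb2 and Ltbp1 fell in db/db nerve, and 5 did not pass the test (limma across the whole table, p adjusted by Benjamini-Hochberg, threshold 0.05). Over all genes 25.1% passed (13.4% higher and 11.7% lower), so 4 of 9 is to be read against that share. Without db/+ 101, 103, 104 and 106, 4 of the 9 passed again (12.9% of all genes), but all 4 were lower (6.12% of all genes were higher and 6.78% lower): Tgfb2, Tgfb3, Ltbp1 and Bmp4. Neither rise passed without those arrays. The median log2 difference of the 9 genes was −0.07 over all arrays and −0.58 without the 4 db/+ arrays, beside 0.02 and −0.05 for all genes. The groups did not overlap in 1 of the 9 genes over all arrays (9.68% of all genes, 3.51% with db/db lower) and in 4 of the 9 without the 4 db/+ arrays (19.0% of all genes, 9.99% with db/db lower). Those 4 were Tgfb2, Tgfb3, Tgfbr2 and Ltbp1, each lower in db/db.

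**Figure D1:**
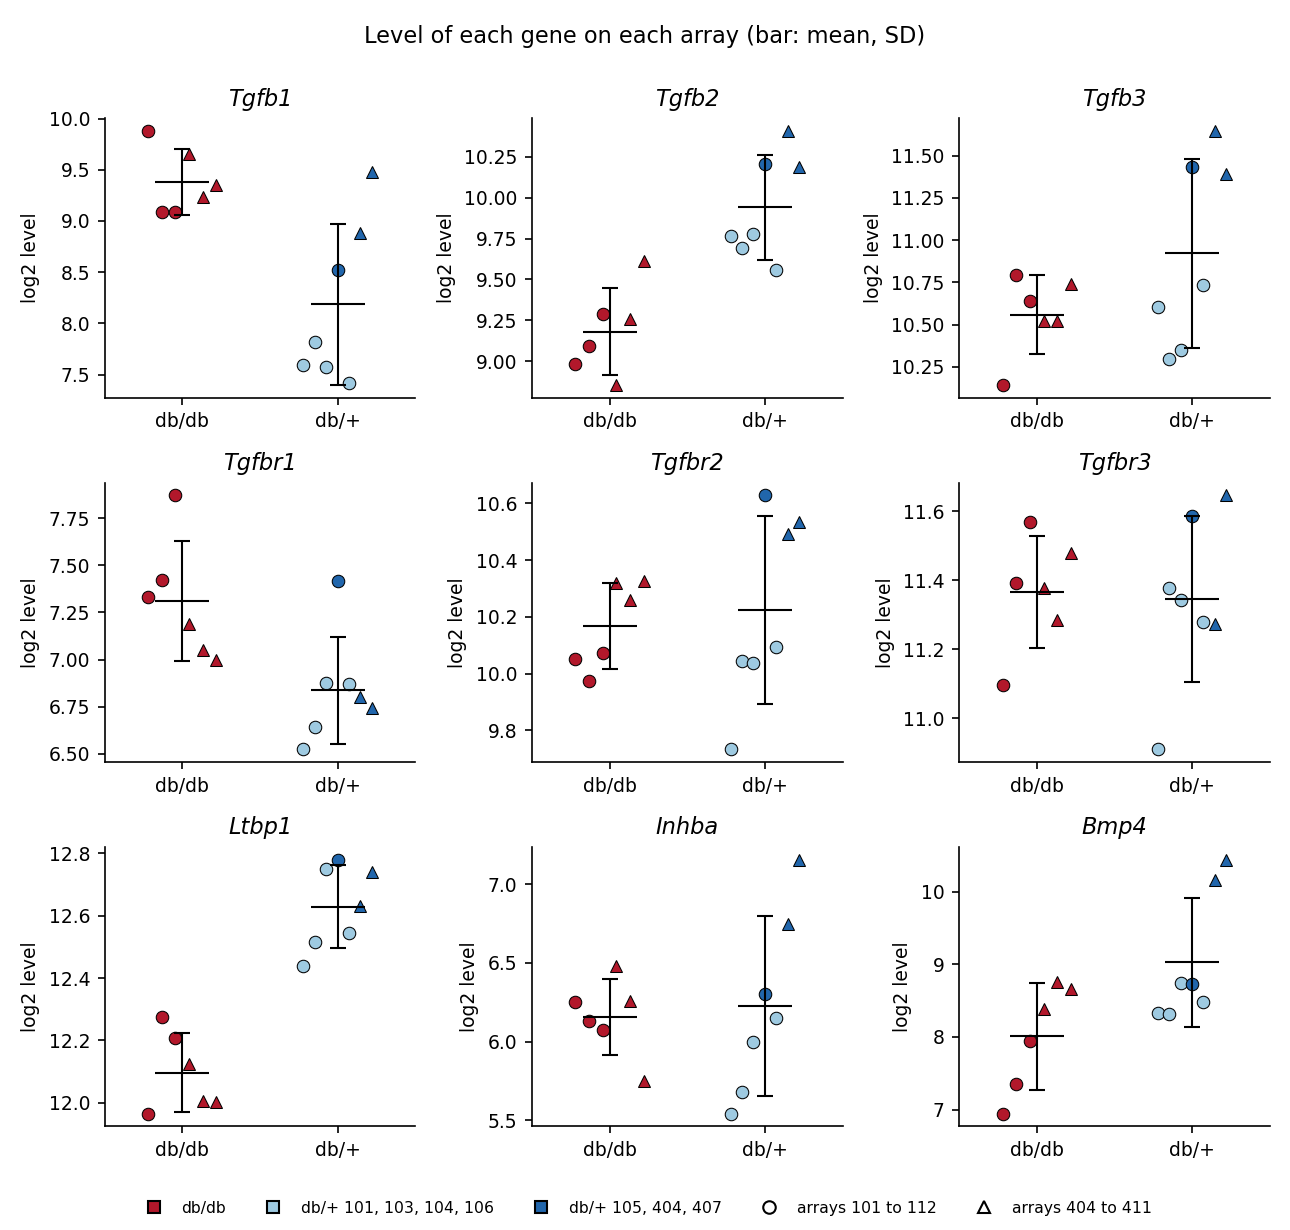
Log2 level of the 9 genes (vertical axes, each with its own range) on 6 db/db arrays and 7 db/+ arrays, with points for arrays and bars for the group mean and SD. Light points mark db/+ 101, 103, 104 and 106, triangles mark arrays 404 to 411, and Ltbp1 is the gene whose groups do not overlap.

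Of the 3 TGF-beta ligand genes Tgfb1, the isoform most studied in immune regulation and fibrosis, rose in db/db nerve. Tgfb2 fell, and Tgfb3 did not pass over all arrays. Both encode isoforms best known from embryonic development. The stretches before the Tgfb1 and Tgfb2 gene starts are shown because these genes were called in opposite directions. They are the 250 bases before the start in RefSeq (GRCm38.p6), read 5′ to 3′ in the gene's direction, with every match to a searched motif in capitals. Windows were matched by symbol for 7 of the 9 genes, and Tgfb3 and Tgfbr3 had no entry among the windows used.
Tgfb1 (chr7:25686752-25687001, plus strand): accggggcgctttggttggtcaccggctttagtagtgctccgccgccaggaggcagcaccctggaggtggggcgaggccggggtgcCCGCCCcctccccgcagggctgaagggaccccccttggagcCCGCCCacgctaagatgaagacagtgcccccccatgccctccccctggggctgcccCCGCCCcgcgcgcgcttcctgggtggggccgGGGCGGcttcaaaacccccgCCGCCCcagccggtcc
Tgfb2 (chr1:186705990-186706239, minus strand): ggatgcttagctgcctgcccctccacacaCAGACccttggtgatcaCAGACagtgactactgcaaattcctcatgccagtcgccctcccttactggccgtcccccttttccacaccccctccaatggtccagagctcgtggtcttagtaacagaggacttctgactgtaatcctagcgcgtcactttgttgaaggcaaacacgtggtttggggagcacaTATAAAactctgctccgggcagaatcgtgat
The motifs searched on both strands were the GC box GGGCGG (held by 32.7% of 32851 such windows), the AP-1 site TGANTCA (6.75%), the cyclic AMP response element TGACGTCA (1.55%), the TATA box TATAAA (12.4%), the Smad box GTCTAGAC (0.167%) and the short Smad site CAGAC (42.2%). The Smad box does not contain the short site on either strand. The Tgfb1 window held 5 GC boxes and none of the other motifs, with 75.2% G or C. The Tgfb2 window held a TATA box 31 to 26 bases before the start and 2 short Smad sites, with 53.6% G or C. Such matches describe the sequence and do not show binding.

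Tgfb1 was between 9.08 and 9.88 (median 9.29) on the 6 db/db arrays, against 7.42 to 9.47 (median 7.82) on the 7 db/+ arrays. The db/+ arrays varied far more than the db/db arrays. Tgfb1 was 7.60, 7.82, 7.57 and 7.42 on db/+ 101, 103, 104 and 106, and 8.53, 8.89 and 9.47 on db/+ 105, 404 and 407. Those first 4 were the lowest of all 13 arrays, and db/+ 407 lay within the db/db range. The means were 9.38 ± 0.32 in db/db (SD, n = 6) and 8.18 ± 0.79 in db/+ (SD, n = 7). Tgfb1 rose by 1.20 ± 0.32 (SE) on the log2 scale, which is 2.29-fold (limma adjusted p = 0.0169). Without the 4 db/+ arrays the difference was 0.42, with a 95% interval from −0.12 to 0.96 (limma adjusted p = 0.291). The samples are numbered 101 to 112 and 404 to 411, a division whose meaning the labels leave out, and the Tgfb1 difference was 1.56 among the lower numbers and 0.23 among the higher ones (limma adjusted p = 0.0143 and 0.555). The mean of the macrophage marker list ranged from 11.18 to 11.81 in db/db and from 11.12 to 11.89 in db/+ 105, 404 and 407. In db/+ 101, 103, 104 and 106 it ranged from 10.80 to 10.98. Of its 9 members 3 rose over all arrays (Cd68, Adgre1 and Itgam), against 13.4% of all genes higher. Csf1r, Cd14, Cd163, Mrc1 and Lyz2 had differences between 0.06 and 0.49 and Aif1 stood at −0.64, and none of these passed. The part of macrophage or neuronal content in the Tgfb1 difference was not tested.

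Tgfb2 was lower in db/db nerve, at 8.86 to 9.61 (median 9.18), against 9.56 to 10.41 (median 9.78) in db/+. The ranges met at a single point, where db/db 411 at 9.61 lay above db/+ 106 at 9.56. Its levels were 9.77, 9.69, 9.78 and 9.56 on db/+ 101, 103, 104 and 106, and 10.21, 10.41 and 10.19 on db/+ 105, 404 and 407. Db/+ 105, 404 and 407 thus lay above every other array. The means were 9.18 ± 0.27 in db/db (SD, n = 6) and 9.94 ± 0.32 in db/+ (SD, n = 7). Tgfb2 fell by 0.76 ± 0.16 (SE) on the log2 scale (limma adjusted p = 0.00485). The fall was 1.09 without the 4 db/+ arrays (adjusted p = 0.00347 by limma), where the groups did not overlap. In arrays 404 to 411, which are 5 arrays, the difference was −1.06 and missed the threshold (limma adjusted p = 0.0606).

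Tgfb3 ran from 10.14 to 10.79 (median 10.58) in db/db and from 10.29 to 11.65 (median 10.73) in db/+. Over all arrays the difference of −0.36 ± 0.23 (SE) did not pass (limma adjusted p = 0.269). The db/+ arrays were again divided. Tgfb3 was 10.60, 10.29, 10.35 and 10.73 on db/+ 101, 103, 104 and 106, inside the db/db range, and 11.44, 11.65 and 11.39 on db/+ 105, 404 and 407, above every db/db array. Without the 4 db/+ arrays Tgfb3 fell by 0.93 (limma adjusted p = 0.00458). The fall was 0.92 among the higher sample numbers (limma adjusted p = 0.0261), and the difference −0.16 among the lower ones (limma adjusted p = 0.723). The fibroblast marker list had a like division, with means from 12.57 to 12.79 in db/db, 13.06 to 13.12 in db/+ 105, 404 and 407, but only 12.61 to 12.83 in db/+ 101, 103, 104 and 106. Of its 8 members 2 fell over all arrays, the small proteoglycan gene Dcn and Pi16, against 11.7% of all genes lower. The collagen genes Col1a1, Col1a2 and Col3a1 stood at −0.05, −0.02 and −0.01. These collagen genes, without the 4 db/+ arrays, stood at −0.35, −0.24 and −0.09 and did not pass (limma adjusted p = 0.0501, 0.225 and 0.572). Whether fibroblast content had a part in the Tgfb2 and Tgfb3 differences was not tested.

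**Figure D2:**
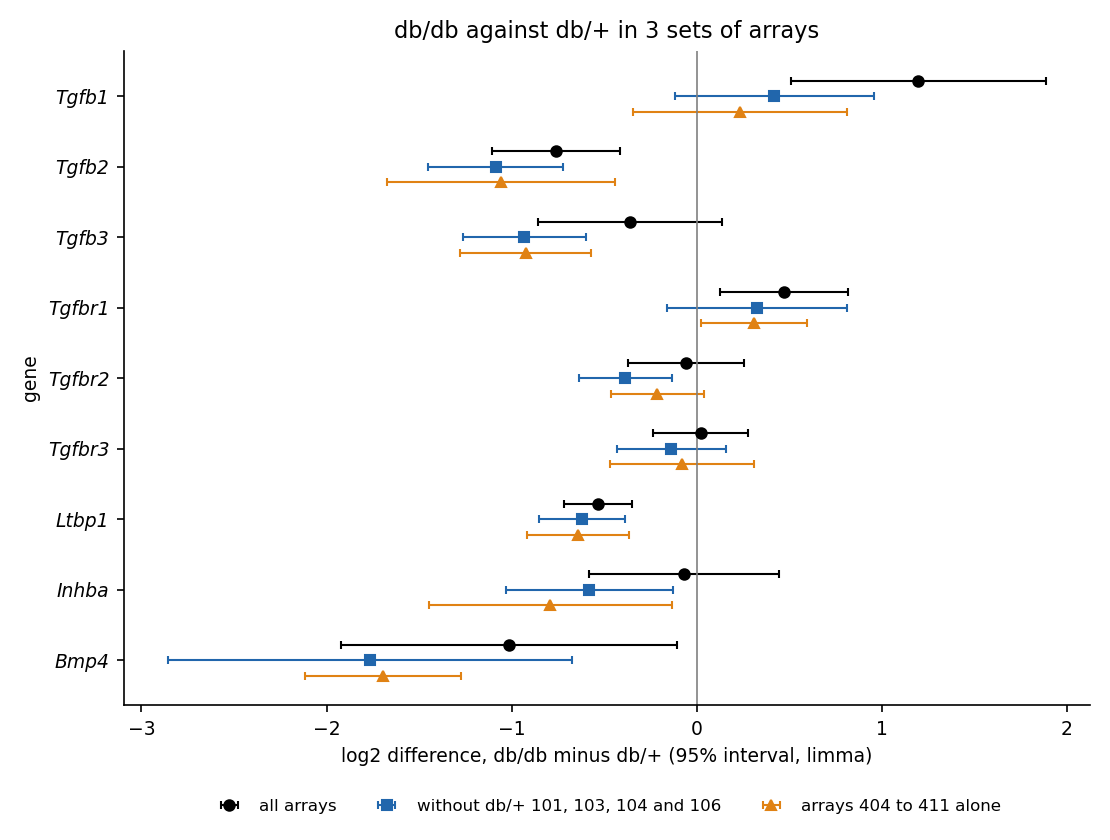
Log2 difference, db/db minus db/+ (horizontal axis), of the 9 genes, with 95% intervals from limma, over all 13 arrays, without db/+ 101, 103, 104 and 106, and in arrays 404 to 411 alone. Tgfb1 lies at 1.20, 0.42 and 0.23 in these sets and Tgfb3 at −0.36, −0.93 and −0.92.

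Ltbp1 showed the clearest separation of the groups. The gene encodes the latent TGF-beta binding protein that is covalently joined to the TGF-beta propeptide and anchors the complex to fibrillin and fibronectin. It ranged from 11.97 to 12.28 (median 12.07) in db/db, against 12.44 to 12.78 (median 12.63) in db/+, so that every db/db array lay below every db/+ array. The 4 db/+ arrays that stood apart, at 12.44, 12.52, 12.75 and 12.55, lay next to db/+ 105, 404 and 407 at 12.78, 12.63 and 12.74. The means were 12.10 ± 0.13 in db/db (SD, n = 6) and 12.63 ± 0.13 in db/+ (SD, n = 7). Ltbp1 fell by 0.53 ± 0.09 (SE) on the log2 scale, a 1.45-fold difference (limma adjusted p = 0.000875). The fall was 0.62 without the 4 db/+ arrays, 0.46 in arrays 101 to 112 and 0.64 in arrays 404 to 411 (limma adjusted p = 0.00553, 0.0392 and 0.0326). Ltbp1 passed in every one of these sets. The gene has a pair of RefSeq starts, which are known to give a long and a short form, and the single probe set does not tell them apart. The bases before each are shown, in the same way as above, because Ltbp1 was the gene with no overlap.
Ltbp1, upstream start (chr17:75005279-75005528, plus strand): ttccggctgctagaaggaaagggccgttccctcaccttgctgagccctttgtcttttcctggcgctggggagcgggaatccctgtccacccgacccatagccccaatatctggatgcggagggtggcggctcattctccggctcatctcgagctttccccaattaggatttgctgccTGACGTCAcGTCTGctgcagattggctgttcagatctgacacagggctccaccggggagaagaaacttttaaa
Ltbp1, downstream start (chr17:75178531-75178780, plus strand): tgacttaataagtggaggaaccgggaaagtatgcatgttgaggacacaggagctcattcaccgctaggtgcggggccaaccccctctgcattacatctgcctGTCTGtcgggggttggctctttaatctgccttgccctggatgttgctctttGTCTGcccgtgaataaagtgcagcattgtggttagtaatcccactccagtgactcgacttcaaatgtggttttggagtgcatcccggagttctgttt
The window at the upstream start held a cyclic AMP response element 73 to 66 bases before the start and a short Smad site 64 to 60 bases before it. The window at the downstream start held 2 short Smad sites, both on the opposite strand, and none of the other motifs.

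Bmp4, a BMP ligand gene active in neural crest, fat and vessel development, was lower in db/db nerve within each series of sample numbers. In the lower numbers Bmp4 was 6.94, 7.36 and 7.95 on the 3 db/db arrays, against 8.33, 8.31, 8.74, 8.73 and 8.48 on the 5 db/+ arrays. In the higher numbers it was 8.39, 8.76 and 8.66 on the 3 db/db arrays, against 10.15 and 10.44 on the 2 db/+ arrays. Within each series the groups did not overlap, and both genotypes were higher in the series 404 to 411. Pooled, the ranges met, at 6.94 to 8.76 in db/db and 8.31 to 10.44 in db/+, and the difference of −1.02 ± 0.42 (SE) did not pass (limma adjusted p = 0.0935). When the fit held the number series as a term, Bmp4 fell by 1.33 (limma adjusted p = 0.000287). The fall was 1.10 among the lower numbers and 1.69 among the higher ones (limma adjusted p = 0.0182 and 0.0132). Without the 4 db/+ arrays it fell by 1.76, with a 95% interval from −2.86 to −0.67 (limma adjusted p = 0.0431). When the fit of those 9 arrays also held the number series, Bmp4 fell by 1.55 (95% interval −2.05 to −1.05, limma adjusted p = 0.00317). Over all arrays with the series as a term 5 of the 9 genes passed (27.4% of all genes): Tgfb1, Tgfb2, Tgfbr1, Ltbp1 and Bmp4. In the lower numbers alone 4 passed (18.5% of all genes), namely Tgfb1, Tgfb2, Ltbp1 and Bmp4, and in the higher numbers alone 3 passed (9.10% of all genes), namely Tgfb3, Ltbp1 and Bmp4. The Bmp4 stretch before the start is given because this gene had the largest fall without the 4 db/+ arrays among the 9.
Bmp4 (chr14:46390670-46390919, minus strand): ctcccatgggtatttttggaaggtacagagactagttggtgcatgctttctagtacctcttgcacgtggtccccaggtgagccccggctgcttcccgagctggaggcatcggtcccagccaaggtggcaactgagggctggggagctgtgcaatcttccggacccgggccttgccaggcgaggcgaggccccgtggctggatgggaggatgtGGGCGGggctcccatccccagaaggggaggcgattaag
It held a GC box 38 to 33 bases before the start and none of the other motifs.

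Inhba encodes the activin A subunit, a ligand that signals to Smad2 and Smad3 as TGF-beta does. Its mean level lay at percentile 24.1 of all genes, and it ran from 5.75 to 6.48 (median 6.19) in db/db and from 5.54 to 7.16 (median 6.15) in db/+, with a difference of −0.07 ± 0.24 (SE) that did not pass (limma adjusted p = 0.860). Its difference without the 4 db/+ arrays was −0.58 and did not pass (limma adjusted p = 0.0912). The number series differed in the direction of their values. Inhba averaged 6.15 in db/db 110, 111 and 112 and 5.93 in db/+ 101 to 106, but 6.16 in db/db 409, 410 and 411 and 6.95 in db/+ 404 and 407. The difference was 0.22 in arrays 101 to 112 and −0.79 in arrays 404 to 411, and neither passed (limma adjusted p = 0.438 and 0.126). The test of the difference between the series gave −1.01 ± 0.33 (SE) for Inhba and −1.33 ± 0.43 for Tgfb1, with unadjusted p of 0.0102 and 0.0109 and Benjamini-Hochberg adjusted p of 0.267 and 0.270 by limma. For the other 7 genes the adjusted p of this test was 0.365 or more, and 0 of 15437 genes passed it by limma, with 2360 at an unadjusted p under 0.05. All 4 db/+ arrays that stood apart have lower numbers, so that in this test the number series and those 4 arrays cannot be told apart.

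**Figure D3:**
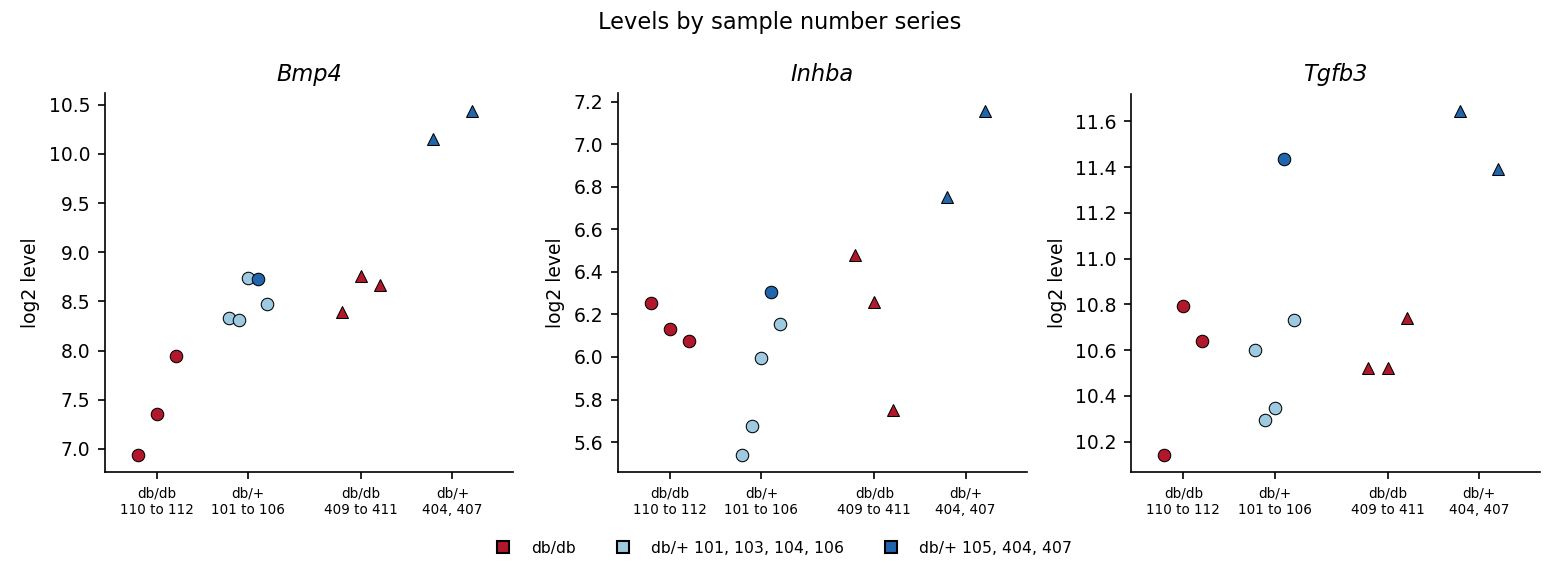
Log2 levels of Bmp4, Inhba and Tgfb3 (vertical axes) on each array, set out by genotype within sample numbers 101 to 112 and 404 to 411. Bmp4 in db/db lies below db/+ within each series, at 6.94 to 7.95 against 8.31 to 8.74 and at 8.39 to 8.76 against 10.15 to 10.44.

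Of the 3 receptor genes only Tgfbr1 passed over all arrays, by a narrow margin. Tgfbr1, the type I receptor kinase that phosphorylates Smad2 and Smad3, ranged from 6.999 to 7.871 (median 7.26) in db/db, against 6.52 to 7.41 (median 6.80) in db/+. Db/+ 105 at 7.41 lay inside the db/db range and the other 6 db/+ arrays lay below every db/db array. The means were 7.31 ± 0.32 in db/db (SD, n = 6) and 6.84 ± 0.28 in db/+ (SD, n = 7). Tgfbr1 rose by 0.47 ± 0.16 (SE) on the log2 scale, close to the threshold (limma adjusted p = 0.0479). It lost the call when any single one of 10 of the 13 arrays was left out, with limma adjusted p from 0.0124 to 0.0910 over the 13 fits. The difference was 0.33 without the 4 db/+ arrays, 0.67 among the lower sample numbers and 0.31 among the higher ones, and none of these passed (limma adjusted p = 0.368, 0.0660 and 0.156).

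Tgfbr2, the type II receptor that binds ligand before the type I receptor joins, ranged from 9.97 to 10.33 in db/db and from 9.73 to 10.63 in db/+. The difference was −0.06 ± 0.15 (SE), with a 95% interval from −0.37 to 0.26 (limma adjusted p = 0.807). Its db/+ levels were 9.73, 10.04, 10.04 and 10.09 on arrays 101, 103, 104 and 106 and 10.63, 10.49 and 10.54 on arrays 105, 404 and 407, and these 3 lay above every db/db array. Without the 4 db/+ arrays the difference was −0.39 and just missed the threshold (limma adjusted p = 0.0514), while a fit of those 9 arrays that also held the series of sample numbers gave a fall of 0.36 that passed (limma adjusted p = 0.0329). In that fit 5 of the 9 genes passed, against 19.3% of all genes.

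Tgfbr3 encodes betaglycan, the co-receptor that presents ligand, TGF-beta 2 above all, to the type II receptor. It ranged from 11.10 to 11.57 in db/db and from 10.91 to 11.65 in db/+, with the db/db range inside that of db/+. The difference was 0.02 ± 0.12 (SE), with a 95% interval from −0.24 to 0.28 (limma adjusted p = 0.918). The difference without the 4 db/+ arrays was −0.14 and did not pass (limma adjusted p = 0.547).

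The wider pathway was taken from 6 lists by role, with 103 entries besides the 9 genes, of which 86 were measured. Of these 14 rose, 10 fell and 62 did not pass, which is 27.9% against 25.1% of all genes. The share of the pathway called was near that of all genes. The groups did not overlap in 10 of the 86, with db/db higher in 6 and lower in 4 (9.68% of all genes, 3.51% with db/db lower). Without the 4 db/+ arrays they did not overlap in 25, with db/db higher in 6 and lower in 19 (19.0% of all genes, 9.99% with db/db lower). Without db/+ 101, 103, 104 and 106, 5 rose and 14 fell (22.1%, against 12.9% of all genes), and 5 of the 14 rises and 6 of the 10 falls over all arrays kept their call. In arrays 404 to 411, 8 of the 86 passed (9.30%, against 9.10% of all genes). Of the calls over all arrays, 3 of the 14 rises and 1 of the 10 falls were kept there. Calls among all 15437 genes also went down, from 3867 over all arrays to 1404 there. How many of those were kept was not counted.

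Among 17 further ligand genes 2 rose and 2 fell, which is 23.5% called against 25.1% of all genes, with a median log2 difference of −0.07. Of this list 1 rose and 3 fell without the 4 db/+ arrays (23.5%, against 12.9% of all genes), and the median was −0.31. Gdf5, a growth and differentiation factor known from joints and neurons, was 7.08 ± 0.58 in db/db (SD, n = 6) and 5.58 ± 0.40 in db/+ (SD, n = 7), with no overlap, and rose by 1.50 ± 0.25 (SE). Bmp7, a BMP active in kidney and brown fat, was 6.89 ± 0.37 in db/db and 8.08 ± 0.45 in db/+, also with no overlap, and fell by 1.20 ± 0.22. Bmp5 fell by 1.18 ± 0.20. All 3 calls held without the 4 db/+ arrays (limma adjusted p = 0.0334, 0.0190 and 0.0404 for Gdf5, Bmp7 and Bmp5). The fourth called gene, Gdf3, rose by 1.52 ± 0.46 and lost its call there (limma adjusted p = 0.237). Gdf3 had means of 6.61 in db/db and 5.09 in db/+. The db/+ means of Gdf5 and Gdf3 lay below that of Inhba (6.23), whose level over all arrays was at percentile 24.1. In arrays 404 to 411 Gdf5 and Bmp5 passed, while Bmp7 and Gdf3 did not (limma adjusted p = 0.0429, 0.0326, 0.133 and 0.267).

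Of 16 other receptor and co-receptor genes 2 rose and 3 fell, which is 31.2% called against 25.1% of all genes, with a median log2 difference of −0.13. Of this list 1 rose and 3 fell without the 4 db/+ arrays (4 of 16, against 12.9% of all genes), and the median was −0.25. Acvr1c, the type I receptor ALK7 that is abundant in fat, was 9.98 ± 0.34 in db/db (SD, n = 6) and 8.91 ± 0.41 in db/+ (SD, n = 7) and rose by 1.06 ± 0.20 (SE). The adipocyte marker list rose over all arrays in 5 of its 9 measured members, against 13.4% of all genes higher. Its means ranged from 12.67 to 13.01 in db/db. They ranged from 11.71 to 12.47 on the 4 db/+ arrays and from 12.38 to 12.73 on the other db/+ arrays. The latter range overlapped that of db/db. The part of adipocyte content in the Acvr1c difference was not tested. Rgmb, a BMP co-receptor, fell by 0.73 ± 0.10, and Bambi, a decoy receptor that blocks TGF-beta and BMP signals, fell by 0.75 ± 0.11. The groups did not overlap in these 3 genes, beside 9.68% of all genes. Each kept its call without the 4 db/+ arrays (limma adjusted p = 0.0229, 0.0211 and 0.0105). In arrays 404 to 411 none of the 3 passed (limma adjusted p = 0.167, 0.0698 and 0.0570). Acvr1b rose by 0.43 and Bmpr2, the BMP type II receptor, fell by 0.61 over all arrays. Neither passed without the 4 db/+ arrays (limma adjusted p = 0.174 and 0.146). The means of Acvr1b were low, at 5.93 in db/db and 5.50 in db/+.

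The genes for storage and release of latent TGF-beta included the greatest rise of the 86. Ltbp2, which has the name and the domain plan of the latent TGF-beta binding proteins but is known not to bind latent TGF-beta, ranged from 10.13 to 10.97 in db/db, against 7.44 to 9.32 in db/+. Every db/db array lay above every db/+ array, with means of 10.61 ± 0.32 in db/db (SD, n = 6) and 8.58 ± 0.58 in db/+ (SD, n = 7). Ltbp2 rose by 2.03 ± 0.25 (SE) on the log2 scale (limma adjusted p = 0.000139) and by 1.61 without the 4 db/+ arrays (limma adjusted p = 0.00170). Ltbp1 and Ltbp2 therefore had opposite calls in both sets of arrays. Thbs1, which encodes thrombospondin 1, an activator of latent TGF-beta, was 10.52 to 11.01 in db/db, against 9.09 to 10.09 in db/+, and rose by 1.01 ± 0.16 (SE). Its rise was 0.74 without the 4 db/+ arrays (limma adjusted p = 0.00747). In arrays 404 to 411 the Thbs1 difference was 0.87 and missed the threshold (limma adjusted p = 0.0513). Ltbp2 passed there, at 1.79 (limma adjusted p = 0.0131). Ltbp3, a binding protein that does hold latent TGF-beta, rose by 0.51 over all arrays and stood at 0.16 without the 4 (limma adjusted p = 0.501). Of the 9 measured genes of this list these 3 rose and 6 did not pass, which is 33.3% called against 25.1% of all genes, with a median log2 difference of 0.17. Of this list 2 rose and 2 fell without the 4 db/+ arrays (44.4%, against 12.9% of all genes), and the median was 0.06.

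Of 14 extracellular antagonist genes 2 rose and 3 fell, which is 35.7% called against 25.1% of all genes, with a median log2 difference of −0.12. Of this list 1 rose and 3 fell without the 4 db/+ arrays (28.6%, against 12.9% of all genes), and the median was −0.31. In arrays 101 to 112 alone 1 of the 14 passed (7.14%, against 18.5% of all genes). Fstl3, whose product binds activins and myostatin, ranged from 9.26 to 10.08 in db/db, against 8.07 to 8.99 in db/+, with no overlap. It rose by 1.13 ± 0.16 (SE) over all arrays, by 1.01 without the 4 db/+ arrays and by 1.38 in arrays 404 to 411 (limma adjusted p = 0.000294, 0.0109 and 0.0172). Fstl1, a secreted glycoprotein of mesenchyme, fell by 0.38 ± 0.10 and kept its call without the 4 db/+ arrays (−0.43, limma adjusted p = 0.0484). Unlike Fstl3 it did not pass in arrays 404 to 411 (−0.42, limma adjusted p = 0.162). Nbl1 and Dcn fell by 0.34 and 0.19 over all arrays and did not pass without the 4, at −0.46 and −0.25 (limma adjusted p = 0.0514 and 0.0994). Nog, the BMP antagonist noggin, rose by 0.46 ± 0.14 with low means of 5.13 in db/db and 4.67 in db/+. It lost its call without the 4 db/+ arrays (limma adjusted p = 0.291).

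Of 13 Smad genes and Smad regulators 5 rose and 8 did not pass, which is 38.5% called against 25.1% of all genes, with a median log2 difference of 0.08. Over all genes 13.4% were called higher. Of the 13, 1 passed without the 4 db/+ arrays (7.69%, against 12.9% of all genes), Ski, a repressor of Smad activity, which was lower by 0.31, and the median was 0.06. The rises were in Pmepa1, Skil and Smad7, which encode feedback inhibitors of TGF-beta signals, in Smad6, an inhibitor of BMP signals, and in Smad2, a carrier of the signal. Pmepa1 was 11.46 ± 0.34 in db/db (SD, n = 6) and 10.27 ± 0.53 in db/+ (SD, n = 7) and rose by 1.18 ± 0.24 (SE). Skil rose by 0.45 ± 0.09 and had no overlap between groups, and Smad2 rose by 0.43 ± 0.10. Without the 4 db/+ arrays none of these 5 passed (limma adjusted p from 0.0627 to 0.519), and the differences were 0.69, 0.28, 0.30, 0.32 and 0.32 for Pmepa1, Skil, Smad7, Smad6 and Smad2. Smad1, Smad3, Smad4, Smad5 and Smad9 had differences between −0.06 and 0.08 over all arrays and did not pass in either set.

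Of 17 genes known to respond to TGF-beta or BMP, 2 fell and 15 did not pass, which is 11.8% called against 25.1% of all genes, with a median log2 difference of −0.03. Of the 17, 2 passed without the 4 db/+ arrays (11.8%, against 12.9% of all genes), with a median of −0.09. When that fit also held the number series, 4 passed (23.5%, against 19.3% of all genes). Id4, an inhibitor of differentiation gene induced by BMPs, was 9.80 ± 0.43 in db/db (SD, n = 6) and 11.11 ± 0.52 in db/+ (SD, n = 7), with no overlap, and fell by 1.31 ± 0.25 (SE). It lost its call without the 4 db/+ arrays (−0.79, limma adjusted p = 0.0633). The fibronectin gene Fn1 fell by 0.39 ± 0.11 and kept its call (−0.53, limma adjusted p = 0.0211). In arrays 404 to 411 Fn1 stood at −0.44 and did not pass (limma adjusted p = 0.110). Tagln, a smooth muscle actin-binding protein gene, stood at −0.45 ± 0.16 and did not pass over all arrays (limma adjusted p = 0.0597). It fell by 0.72 without the 4 db/+ arrays, by 0.76 among the higher sample numbers and by 0.56 with the number series as a term (limma adjusted p = 0.0337, 0.0268 and 0.00172). The connective tissue growth factor gene Ccn2, Postn, Acta2 and Id1 stood at 0.25, 0.60, 0.23 and −0.21 over all arrays, and none of these 4 passed with or without the 4 db/+ arrays.

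**Figure D4:**
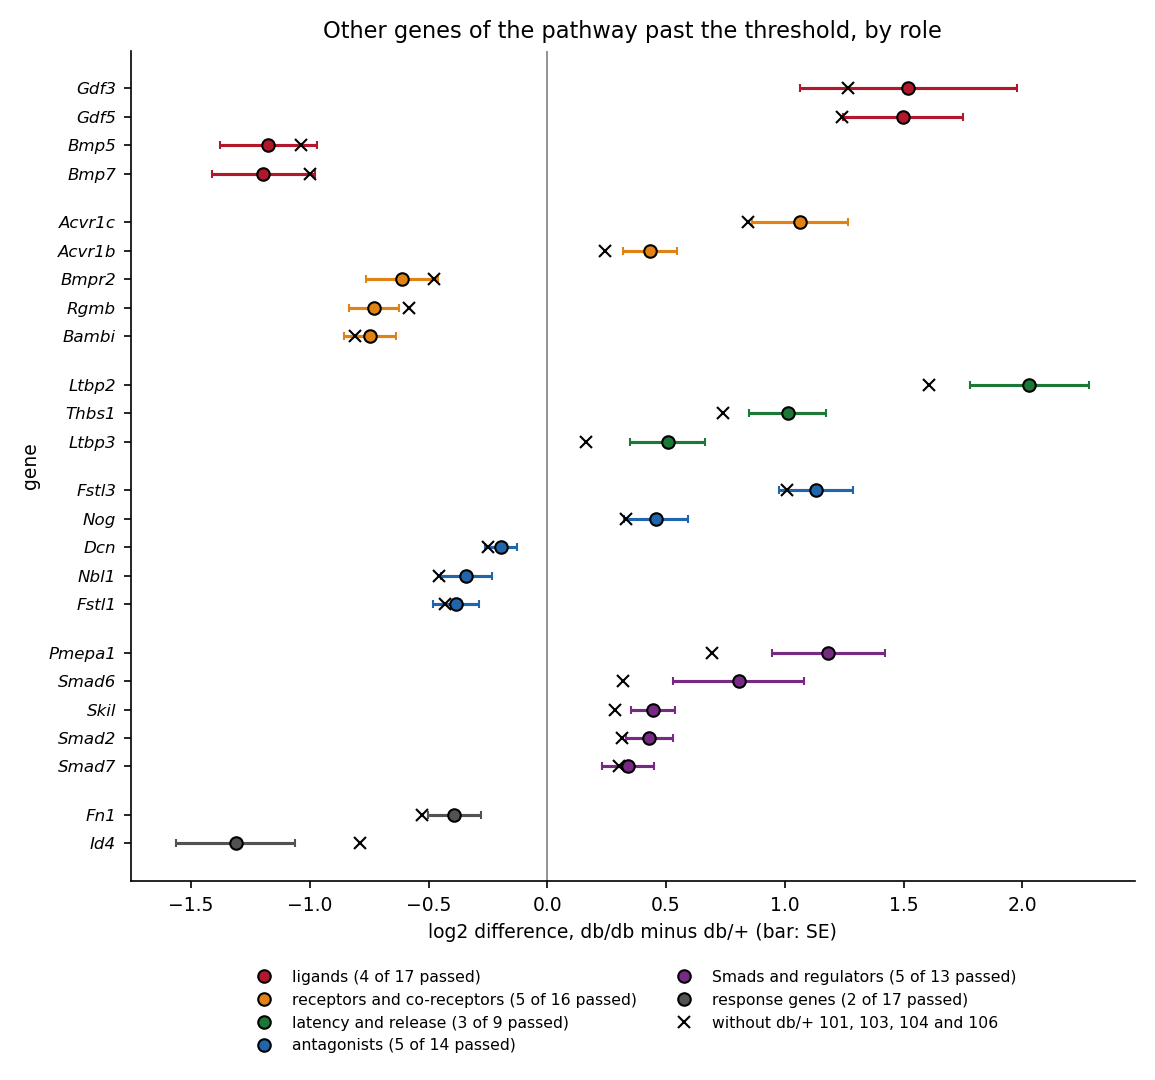
Log2 difference, db/db minus db/+ (horizontal axis, bar for the SE), of the 24 pathway genes past the threshold over all arrays, coloured by role, with crosses for the difference without db/+ 101, 103, 104 and 106. Ltbp2 lies at 2.03 with its cross at 1.61, and Id4 at −1.31 with its cross at −0.79.

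For the 4 genes called over all arrays, the genes of the table with the most similar pattern were found by the root mean square difference between mean-centred log2 levels over the 13 arrays. For Tgfb1, whose own levels had a root mean square deviation of 0.83, the nearest were Tmem106a, Laptm5 and Spi1, at 0.24, 0.25 and 0.25. Laptm5 is a lysosomal membrane protein gene of blood cells and Spi1 encodes PU.1, a transcription factor of myeloid cells. For Tgfb2, with a deviation of 0.47, they were Ccn3, Msx1 and Itgbl1, at 0.20, 0.21 and 0.21. For Ltbp1, with a deviation of 0.29, they were Ogn, Add3 and Thbd, each at 0.08, of which Ogn encodes osteoglycin, a small proteoglycan of connective tissue. For Tgfbr1, with a deviation of 0.36, they were Cep164, Mdfic and Fnip1, at 0.18, 0.19 and 0.19. These likenesses cover genotype and the division of the db/+ arrays together and carry no test.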

How the data were processed

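The deposited values were log2 expression levels that the authors made with RMA, per the submitters' processing notes, from biotin-labelled RNA, per the labels' protocols. RMA in general adjusts for background, brings all arrays to 1 distribution and combines the probes of a set, so differences in total signal are lost and dim genes show too small a fold. The sources used here do not name its version or the array, and no detection calls were used.

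Of 15479 probe sets, 42 controls were left out and 15437 were tested, and 14801 of these had a gene symbol. The genotype difference came from limma 3.58.1 in R 4.3.3 (lmFit, then eBayes, two-sided), and p-values were adjusted by Benjamini-Hochberg across all 15437 genes, with calls at 0.05. The number of arrays limits the precision. On simulated data for 15437 genes, 200 of them changed, the fit recovered 76% of changes of 1 and 96% of changes of 2 in log2 units. Of its 181 calls 9 were false. The simulation drew independent noise for each gene and array, without the division of the db/+ arrays or the number series. It therefore does not cover recovery or false calls under those divisions. The 9 genes, the lists and the 4 db/+ arrays shown apart were chosen with earlier results of these data known. Named genes besides the 9 are the 3 of smallest p in each list plus called genes without overlap, at most 5 a list, and the 3 most alike in pattern. Others were chosen after their values were seen. Alternatives were other array sets, the number series as a block, other normalizations, filters on dim genes, other moderation and an exact permutation test. Promoter windows came from RefSeq (GRCm38.p6), searched with Python 3.11.15. Figures used matplotlib 3.10.9.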

Additional observations from a re-analysis of the deposited data

Results flagged for a closer look

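Tgfbr1 on db/+ 105 stood at 7.41, with the nearest other db/+ array at 6.88, a gap of 0.603 of the range of the 7 db/+ arrays. It was the single array marked in this way among 18 gene and genotype groups examined for a sample far from the others, and chance marks about 5% of such groups.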

How the results depend on the processing

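No paired analysis was made, because the labels name no pairs of db/db and db/+ samples. The count of called genes among the 9 was 4 over all arrays, and 3 to 5 over the other settings, and the genes counted differed: Tgfb1 and Tgfbr1 lost their calls without db/+ 101, 103, 104 and 106, and Tgfb3 and Bmp4 gained theirs. Leaving out each array gave 3 to 4. Ltbp1 kept its direction and call in every setting run, and Tgfb2 in all except arrays 404 to 411. The Tgfb1 difference ranged from 1.07 to 1.41 when single arrays were left out. Tgfbr3 changed sign to −0.14 without the 4 db/+ arrays (the same with the number series added), −0.08 in arrays 404 to 411 and −0.017 after renewed quantile normalization, and ranged from −0.052 to 0.075 with single arrays left out. Inhba changed sign to 0.22 in arrays 101 to 112 and 0.012 after renewed quantile normalization, and ranged from −0.18 to 0.087 with single arrays left out, while Tgfbr2 ranged from −0.14 to 0.011. None of these values passed. The exact permutation test (two-sided, unadjusted) gave p = 0.00991 for Tgfb1, 0.00175 for Tgfb2, 0.0163 for Tgfbr1, 0.0583 for Bmp4 and 0.000583 for Ltbp1, the smallest that 6 against 7 arrays can give. The count of pathway genes called was 24 over all arrays, 15 in arrays 101 to 112 and 8 in arrays 404 to 411. It was 20 among genes at or above the 25th percentile of mean level and 18 at or above the 50th. Of the 14 rises over all arrays, 8 kept their call in arrays 101 to 112 and 3 in arrays 404 to 411. Of the 10 falls, 6 and 1 did. With single arrays left out the count was 18 to 24. The count over all genes was 3867, against 1992 without the 4 db/+ arrays, 1404 in arrays 404 to 411 and 2404 above the 50th percentile of mean level. Those sets have fewer arrays or fewer genes. With single arrays left out the count was 2893 to 4529. Inhba lay below the 25th percentile of mean level, and had no value under that filter. Inhba, Bmp4 and Tgfbr1 had none above the 50th percentile.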

Other observations

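Several pathway genes not described above missed the threshold over all arrays but passed without db/+ 101, 103, 104 and 106, and were chosen after their values were seen. Ltbp4, a latent TGF-beta binding protein gene, fell by 1.14 there (limma adjusted p = 0.0280), and its difference over all arrays was −0.32 (limma adjusted p = 0.533). Chrdl1, which encodes the BMP antagonist chordin-like 1, fell by 1.20 there (limma adjusted p = 0.00716), and its difference over all arrays was −0.62 (limma adjusted p = 0.0865). Acvrl1, the type I receptor ALK1 of endothelial cells, fell by 0.79 there (limma adjusted p = 0.0251), and its difference over all arrays was −0.23 (limma adjusted p = 0.535). Bmp1, the protease that cleaves procollagen and chordin, fell by 0.81 there (limma adjusted p = 0.00972), and its difference over all arrays was −0.19 (limma adjusted p = 0.602). The difference between these fits was not tested, since they share 9 arrays.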
